A study of Mus musculus with 6 samples.

Results

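The integrated stress response was followed through 10 genes in RNA-seq libraries of leukemia stem cells (LSCs) from a mouse model of acute myeloid leukemia (AML). They were the transcriptional regulators Atf4, Atf5, Ddit3 and Nupr1, the translational repressor Eif4ebp1, the phosphatase subunit Ppp1r15a, and the kinases Eif2ak1, Eif2ak2, Eif2ak3 and Eif2ak4. The 10 genes were chosen from textbook knowledge of the pathway and on the difference between WT and Piezo1cko LSCs in these same libraries, so this difference is described for them without a p-value. All 10 were among the 55367 genes of the table, had reads, and passed the filter on low values that left 16746 genes.

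There were 3 libraries of WT LSCs and 3 of Piezo1cko LSCs. WT donors were Piezo1 fl/fl mice and Piezo1cko donors were Mx1-cre; Piezo1 fl/fl mice, on a C57BL/6 background, and both had received pIpC (poly(I:C), a double-stranded RNA mimic that induces interferon) at an age of 8 to 10 weeks. Mx1-cre is switched on by interferon in many cell types, so deletion in the donors was not limited to the cells later transduced. It was made before transduction and transplantation, and only donor cells carried it into the recipients. Lineage-negative marrow of the donors was transduced with a retrovirus carrying MLL-AF9 and YFP and transplanted into irradiated mice, and LSCs were sorted from the leukemic marrow. The study's supplement defines them by YFP, by the absence of lineage markers and Sca-1, by c-Kit and CD34, and by a high level of CD16/32. Nothing in the labels or methods says whether the 3 libraries of a group came from separate mice, so the p-values below measure only the spread between libraries, which may be technical.

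In the integrated stress response, stress-sensing kinases phosphorylate the alpha subunit of eIF2, the factor that brings the initiator tRNA to the ribosome. General translation then slows, while a few mRNAs with upstream open reading frames, Atf4 foremost, are translated better, and ATF4 switches on genes for amino acid supply, tRNA charging and redox balance. HRI (Eif2ak1) responds to heme shortage and to mitochondrial stress, PKR (Eif2ak2) to double-stranded RNA, PERK (Eif2ak3) to unfolded protein in the endoplasmic reticulum, and GCN2 (Eif2ak4) to amino acid shortage. Since the kinases act by phosphorylation and ATF4 is controlled largely at translation, mRNA levels do not measure the activity of either.

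Normalized reads below are reads on a gene, recovered from the deposited log2 values and divided by the library's size factor. The 6 libraries held 14112113 to 15483594 recovered reads on genes. The deposited values have the form of a regularized log, which pulls each library toward the gene's mean, and most strongly where reads are few. A difference between groups is therefore smaller in the deposited values than in the reads, and both are given. Piezo1 had 101, 92.8 and 109 normalized reads in the WT libraries and 36.6, 56.5 and 45.8 in the Piezo1cko libraries, 45.9% of the WT mean, with no overlap between the groups.

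Sequences upstream of the genes are shown first, as a description. Whether sites in them bear on which members were lower in Piezo1cko LSCs was not tested. The sequences come from RefSeq, build GRCm38.p6, for 9 of the 10 genes, and Eif4ebp1 had no entry. A window of 250 bases before to 50 bases after the RefSeq start was searched on both strands. The letters searched were TGATGNAAN (the C/EBP-ATF response element, to which ATF4 and CHOP bind with a C/EBP partner), TGACGTCA (the cAMP response element), GAAA with 2 free bases before another GAAA (the interferon-stimulated response element), and CCAAT with 9 free bases before CCACG (the endoplasmic reticulum stress response element of ATF6). None of these patterns contains another. Nupr1, the member with the largest difference, and Ppp1r15a, whose level did not separate the groups, are printed as the 250 bases before the start on the gene's strand, with matches in capitals. The Nupr1 stretch is chr7:126625471-126625720 on the minus strand, and that of Ppp1r15a is chr7:45526269-45526518 on the minus strand.
Nupr1: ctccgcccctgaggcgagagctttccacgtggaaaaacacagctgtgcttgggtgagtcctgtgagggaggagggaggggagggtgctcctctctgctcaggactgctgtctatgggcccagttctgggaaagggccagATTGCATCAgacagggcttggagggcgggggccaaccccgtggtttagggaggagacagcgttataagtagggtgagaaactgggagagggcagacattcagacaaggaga
Ppp1r15a: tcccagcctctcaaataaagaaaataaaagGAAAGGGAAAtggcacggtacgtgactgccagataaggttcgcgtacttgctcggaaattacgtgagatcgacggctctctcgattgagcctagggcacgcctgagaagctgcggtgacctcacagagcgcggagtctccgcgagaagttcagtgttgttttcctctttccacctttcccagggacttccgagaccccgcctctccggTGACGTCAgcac

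Among the 9 members Nupr1 alone held the C/EBP-ATF letters in this window, read on the other strand from -111, and 4.5% of all 27025 genes with an entry held them. Ppp1r15a held the cAMP response element from -12, found in 2.03% of all genes, and the interferon letters from -220. Among the kinases, Eif2ak2 alone held the interferon letters, from +19, against 3.99% of all genes. The endoplasmic reticulum stress letters, present in 0.14% of all genes, were in none of the 9. The windows of Atf4, Atf5, Ddit3, Eif2ak1, Eif2ak3 and Eif2ak4 matched none of the patterns. Of the list of ATF4 and CHOP targets used further on, 13 of 37 genes with an entry, or 35.1%, held the C/EBP-ATF letters. The sites of the most changed of these targets are set beside that of Nupr1 and beside the interferon letters of Eif2ak2, each with 10 bases on either side, 5′ to 3′ on the gene's strand and with the match in capitals. They lie at chr7:126625573-126625581 (Nupr1, minus strand), chr6:7693224-7693232 (Asns, minus strand), chr3:50443671-50443679 (Slc7a11, minus strand), chr2:152344039-152344047 (Trib3, minus strand) and chr17:78882545-78882554 (Eif2ak2, minus strand).
Nupr1: aaagggccagATTGCATCAgacagggctt
Asns: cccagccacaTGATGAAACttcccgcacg
Slc7a11: ctcatgtggcTGATGCAAAcctggagaat
Trib3: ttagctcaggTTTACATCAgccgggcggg
Eif2ak2: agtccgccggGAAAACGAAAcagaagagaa

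The transcriptional regulators Atf4, Atf5, Ddit3 and Nupr1 were all lower in Piezo1cko than in WT LSCs, to very different extents. Atf4 (chromosome 15, 80255184 to 80257541), the central factor of the response, had 1130, 1083 and 1172 normalized reads in the WT libraries and 698, 704 and 709 in the Piezo1cko libraries. Every Piezo1cko library lay below every WT library, and the Piezo1cko mean was 62.4% of the WT mean. The log2 difference, Piezo1cko minus WT, was -0.44 (SE 0.03, n = 3 per group) on the deposited scale and -0.68 (SE 0.05) from the reads. In sorted cells measured in bulk, fewer cells that make a transcript and less of it per cell cannot be told apart.

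Atf5 (chromosome 7, 44812256 to 44816658), a relative of Atf4 that is likewise translated through upstream open reading frames, had 167, 153 and 152 normalized reads in WT and 66.9, 78.0 and 95.6 in Piezo1cko LSCs. Here too the groups did not overlap, with a Piezo1cko mean of 50.9% of WT, but the Piezo1cko libraries were spread more widely (80.2 ± 14.5, SD, n = 3) than the WT libraries (157 ± 8.22, SD, n = 3). The log2 difference of Atf5 was -0.34 (SE 0.04) on the deposited scale and -0.98 (SE 0.14) from the reads.

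Ddit3 (chromosome 10, 127290774 to 127296288) encodes CHOP, the factor that carries prolonged stress toward cell death. It had 315, 285 and 274 normalized reads in WT LSCs and 81.5, 78.0 and 80.4 in Piezo1cko LSCs, 27.4% of WT. The 3 Piezo1cko libraries lay close together and far below the lowest WT library. The log2 difference of Ddit3 was -0.77 (SE 0.04) on the deposited scale and -1.86 (SE 0.12) from the reads. It was the widest gap after Nupr1 on the reads, while on the deposited scale that of Eif4ebp1 was wider.

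Nupr1 (chromosome 7, 126623249 to 126630861) encodes a small stress-induced chromatin protein that lies downstream of ATF4. Its recovered reads, before scaling, numbered 752, 686 and 751 in the WT libraries and 0, 1 and 1 in the Piezo1cko libraries. The transcript was thus abundant in every WT library and at the limit of detection in every Piezo1cko library. The ratio of WT to Piezo1cko was 1061, with an exact 95% interval of 293 to 8763. This interval covers counting error only and takes the recovered reads as exact. The log2 difference from the reads was -9.40 (SE 0.53). On the deposited scale the same reads became 8.68 ± 0.03 (SD, n = 3) in WT and 6.12 ± 0.01 (SD, n = 3) in Piezo1cko LSCs, a log2 difference of -2.56 (SE 0.04). It was the 4th lowest difference of all genes tested, and the pull of the transform shows in it, since a near absence of reads is listed at 6.12.

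**Figure D1:**
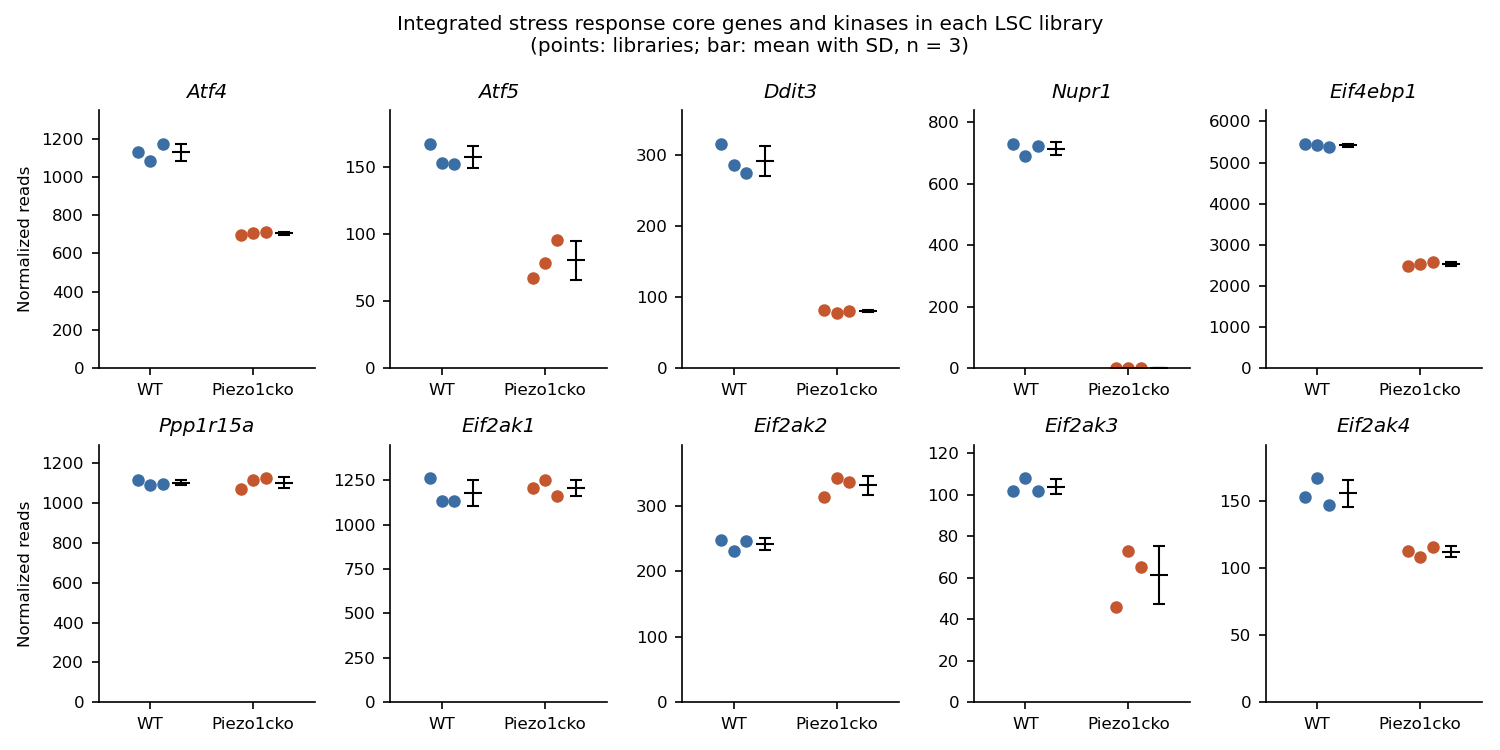
Normalized reads (vertical axis, from 0, own scale per panel) of the 10 genes in the 3 WT and 3 Piezo1cko libraries; points are libraries and the bar beside them is the mean with SD. The groups are apart for Atf4, Atf5, Ddit3, Nupr1, Eif4ebp1, Eif2ak2, Eif2ak3 and Eif2ak4 and overlap for Ppp1r15a and Eif2ak1.

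Eif4ebp1 and Ppp1r15a, which both act on translation downstream of ATF4, did not go together. Eif4ebp1 (chromosome 8, 27260329 to 27276674) encodes 4E-BP1, which holds back cap-dependent translation, and is a target of ATF4. It had 5452, 5425 and 5373 normalized reads in WT and 2482, 2542 and 2569 in Piezo1cko LSCs, 46.7% of WT. The libraries of each group were tightly grouped and far apart from those of the other. The log2 difference of Eif4ebp1 was -0.79 (SE 0.02) on the deposited scale and -1.10 (SE 0.03) from the reads.

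Ppp1r15a (chromosome 7, 45522916 to 45526268) encodes GADD34, the inducible subunit that brings protein phosphatase 1 to eIF2alpha and so ends the response. It had 1114, 1090 and 1093 normalized reads in WT and 1068, 1111 and 1122 in Piezo1cko LSCs. The Piezo1cko libraries reached from below the lowest to above the highest WT library, and the log2 difference was 0.00 on the deposited scale (SE 0.03) and from the reads (SE 0.04). The ratio of WT to Piezo1cko was 0.998, with an exact 95% interval of 0.951 to 1.05 from counting. Ppp1r15b, the subunit made without stress, had 403 ± 14.9 normalized reads (SD, n = 3) in WT and 412 ± 17.7 (SD, n = 3) in Piezo1cko LSCs, a log2 difference of 0.02 that did not pass the test (limma, adjusted p = 0.684). Per kb of exon, the 6 libraries held 364 to 382 normalized reads of Ppp1r15a and 69.0 to 77.1 of Ppp1r15b.

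The 4 kinases differed from each other in direction. Eif2ak3 (PERK, chromosome 6, 70844515 to 70905245) had 102, 108 and 102 normalized reads in WT and 46.0, 73.1 and 65.1 in Piezo1cko LSCs, 59.1% of WT. All 3 Piezo1cko libraries lay below WT, and their coefficient of variation was 22.7%, against the 12.8% that counting alone gives at this depth. The log2 difference of Eif2ak3 was -0.21 (SE 0.04) on the deposited scale and -0.77 (SE 0.16) from the reads.

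Eif2ak4 (GCN2, chromosome 2, 118388618 to 118475234) had 153, 167 and 147 normalized reads in WT and 113, 108 and 116 in Piezo1cko LSCs. It too was lower in each Piezo1cko library, at 72.2% of WT, with a log2 difference of -0.17 (SE 0.04) on the deposited scale and -0.47 (SE 0.11) from the reads.

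Eif2ak2 (PKR, chromosome 17, 78852564 to 78882573) was alone among the 10 members in being higher in every Piezo1cko than in every WT library. It had 248, 231 and 246 normalized reads in WT and 314, 342 and 337 in Piezo1cko LSCs, 137% of WT. The log2 difference of Eif2ak2 was 0.23 (SE 0.04) on the deposited scale and 0.45 (SE 0.08) from the reads. Eif2ak2 is itself an interferon-induced gene.

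Eif2ak1 (HRI, chromosome 5, 143817788 to 143904251) had 1260, 1132 and 1133 normalized reads in WT and 1204, 1253 and 1161 in Piezo1cko LSCs. The groups overlapped, and the log2 difference was 0.03 (SE 0.03) on the deposited scale and 0.04 (SE 0.05) from the reads.

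**Figure D2:**
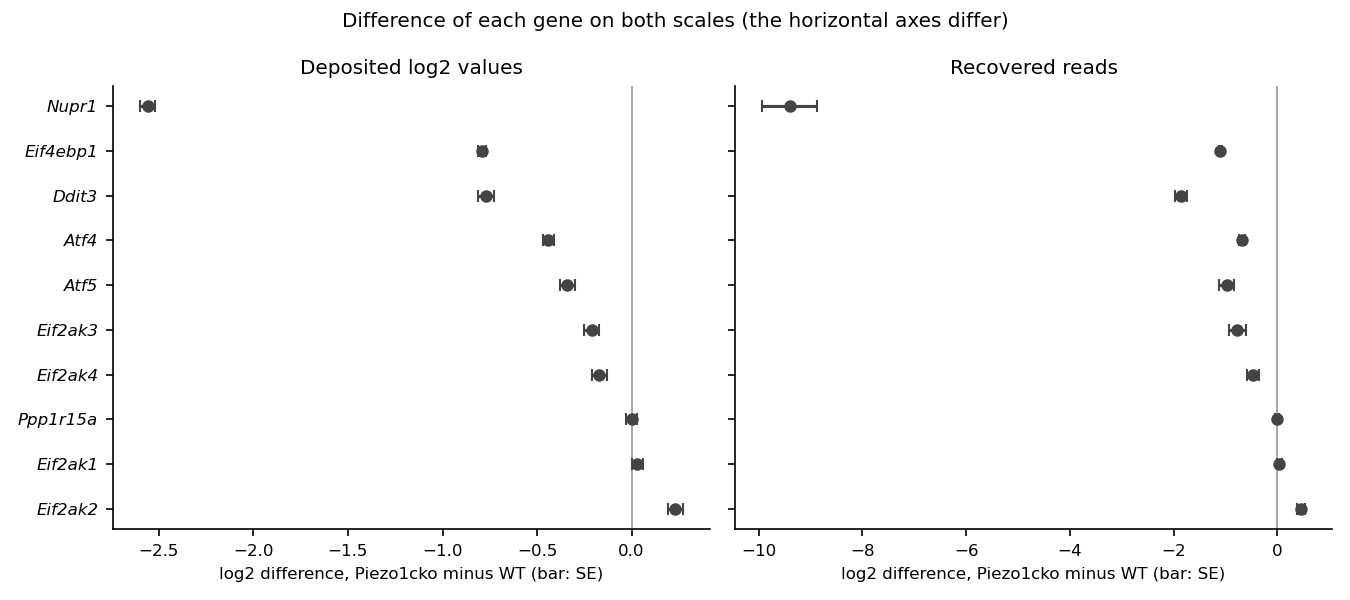
Log2 difference, Piezo1cko minus WT, of the 10 genes on the deposited scale (left) and from recovered reads (right, wider axis), with its SE from limma as a bar. The order by size changes between the scales: Ddit3 is at -0.77 and Eif4ebp1 at -0.79 on the deposited scale, but at -1.86 and -1.10 from the reads.

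Over the members, 8 of 10 passed an adjusted p under 0.05 on the deposited scale (limma), 7 lower and 1 higher. Over all genes 63.0% passed, 31.4% lower and 31.6% higher. The libraries of the groups did not overlap for 8 of 10 members, against 66.6% of all genes. A differentially expressed gene (DEG) by the study's thresholds has an adjusted p under 0.05 and a log2 difference over 1 in either direction. The study applied them to a DESeq2 fit of read counts, which was not repeated here, so the calls below are not the study's. Only Nupr1 was called on the deposited scale, where 0.818% of genes were called, 0.561% lower and 0.257% higher. On the recovered reads 8 of 10 members again passed the adjusted p, where 62.9% of genes did, 31.4% lower and 31.6% higher. There 3 members (Nupr1, Ddit3 and Eif4ebp1) were lower DEGs, against 12.2% of genes lower, 12.7% higher and 24.9% in either direction. The median log2 difference of the members was -0.28 on the deposited scale and -0.73 from the reads, and that of all genes was 0.00 on both. Because the members were chosen on this same difference, nothing is read from these counts.

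With 1 library left out at a time, no member changed sign except Ppp1r15a, which moved between -0.01 and 0.02 on the deposited scale. Eif2ak1 stayed between 0.01 and 0.06, Eif2ak3 between -0.25 and -0.17, and Atf4 between -0.46 and -0.42. With the libraries centred on their medians, calls over all genes moved from 5258 lower and 5298 higher to 4214 lower and 6450 higher.

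Levels were compared between genes only per kb of merged exon. In WT LSCs the order from highest to lowest was Eif4ebp1 (2467 ± 18.3 normalized reads per kb, SD, n = 3), Atf4 (479 ± 18.9), Ppp1r15a (374 ± 4.45), Nupr1 (284 ± 7.89), Eif2ak1 (207 ± 13.0), Ddit3 (170 ± 12.5), Atf5 (79.0 ± 4.13), Eif2ak2 (47.3 ± 1.85), Eif2ak4 (20.9 ± 1.32) and Eif2ak3 (17.2 ± 0.58). No neighbours in this order overlapped between libraries, but error in the lengths, which the libraries share, is not covered. Another length can change the order. Nupr1 has 2514 bases of merged exon and a mean transcript length of 879 bases, against 2358 and 1468 for Atf4. For Ddit3 the merged exon has 1713 bases and the longest transcript 969. The order of all 10 genes by other lengths was not computed. In Piezo1cko LSCs Eif4ebp1 was still first, at 1153 normalized reads per kb, and Atf4, at 298, lay below Ppp1r15a, at 375. Nupr1, in the 4th place in WT, was last in Piezo1cko LSCs, at 0.264. Ddit3 at 46.7 and Atf5 at 40.2 were neighbours whose libraries overlapped.

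The order of the kinases within a library is a measure that the choice of members did not use. Eif2ak1 had the most mRNA per kb of the 4 in each of the 6 libraries, followed by Eif2ak2, Eif2ak4 and Eif2ak3. Its level was 3.79-fold that of Eif2ak2 (mean log2 ratio per kb 1.92, SE 0.10), 11.8-fold that of Eif2ak4 (3.57, SE 0.12) and 16.0-fold that of Eif2ak3 (SE 0.21 on the log2 scale). Eif2ak2 stood 3.12-fold above Eif2ak4 (1.64, SE 0.21) and 4.21-fold above Eif2ak3 (2.07, SE 0.29). These are means over both groups, and the ratios differed between them. The mean log2 ratio of Eif2ak2 over Eif2ak3 was 1.46 in the WT and 2.69 in the Piezo1cko libraries, and that over Eif2ak4 was 1.18 and 2.10. For Eif2ak1 it was 2.13 and 1.72 over Eif2ak2, 3.59 and 4.41 over Eif2ak3, and 3.31 and 3.82 over Eif2ak4. Each of the 6 pairs had the same sign in 6 of 6 libraries. By an exact two-sided sign-flip permutation test each gave p = 0.0312, the smallest p that 6 libraries allow. This p stays 0.0312 after Benjamini-Hochberg adjustment over the pairs. Any ratio with the same sign in all 6 libraries gives it, and error in the lengths, which the libraries share, is not covered. Eif2ak3 lay below Eif2ak4 by a mean log2 ratio of -0.43 (SE 0.12), and this order turned with the length used: per mean transcript length the ratio was 0.24. Of the 4 kinases' summed level, Eif2ak1 held 70.8 ± 1.14% (SD, n = 3) in WT and 70.3 ± 1.33% (SD, n = 3) in Piezo1cko LSCs. The share of Eif2ak2 was 16.2 ± 0.646% in WT and 21.4 ± 0.732% in Piezo1cko LSCs, that of Eif2ak4 7.14 ± 0.61% and 4.98 ± 0.328%, and that of Eif2ak3 5.90 ± 0.402% and 3.36 ± 0.689%.

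**Figure D3:**
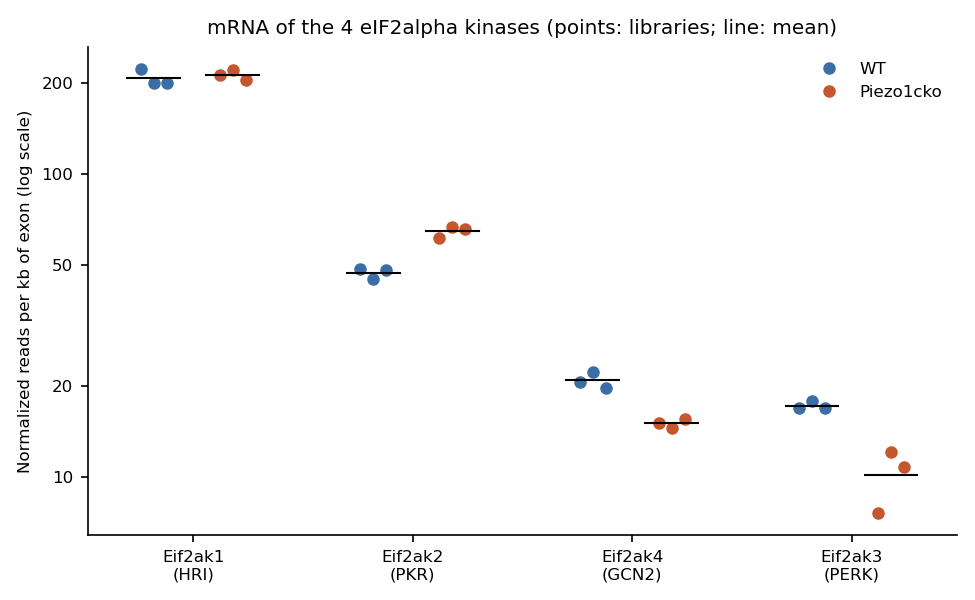
Normalized reads per kb of merged exon (log axis) of the 4 eIF2alpha kinases in the 6 libraries; points are libraries and lines are group means. Eif2ak1 stands 3.79-fold above Eif2ak2 on average, and Eif2ak2 is the only kinase whose Piezo1cko libraries all lie above WT.

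Some exon sequence of the members lies opposite another gene, and whether counting kept the strand is not given in the sources used here. The longest stretches were 487 bases shared by Eif2ak1 and Aimp2, 8.6% of the exons of Eif2ak1, and 485 bases shared by Eif2ak3 and Gm43292, or 8.0%. Atf5 shared 4.1% of its exon bases with Nup62 and Il4i1, and Ddit3 shared 4.0% with Mars. Reads in these stretches cannot be assigned to one gene. No member matched a transcript of another gene at 95% identity over 200 bases outside these overlaps.

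The rest of the pathway was described by lists of genes that are not members, with an adjusted p under 0.05 over all genes tested (limma). Log2 differences, medians and p-values of these lists are on the deposited scale unless the reads are named, and normalized reads and percentages of WT are of the recovered reads, whose differences are larger. Each list's share is to be set beside the 31.4% of all genes that were lower and the 31.6% that were higher. Of 9 genes for the subunits of eIF2, of its exchange factor eIF2B and for the GTPase activator Eif5, 7 fell (77.8%) and 1 rose, with a median log2 difference of -0.19 and of -0.26 from the reads. The gene with the largest difference was Eif2s2, the beta subunit of eIF2, which fell from 6862 ± 244 normalized reads (SD, n = 3) to 3934 ± 99.7 (SD, n = 3), a log2 difference of -0.58 (SE 0.03, limma adjusted p = 4.78e-13). Eif2s1, the alpha subunit that the 4 kinases phosphorylate, fell by 0.23 on the log2 scale (limma adjusted p = 1.91e-06), and its normalized reads were 80.4% of WT. Eif2b5, the catalytic subunit of eIF2B, fell by 0.23 (limma adjusted p = 1.27e-06) and Eif2s3x, the gamma subunit, fell by 0.22 (limma adjusted p = 9.77e-05). Eif2b2 rose by 0.09 (limma adjusted p = 0.0206).

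Of 14 regulators of the kinases and of the eIF2alpha phosphatases, 13 were tested, Hspb8 being listed at 0, and 5 fell and 2 rose, with a median of -0.06 and of -0.09 from the reads. The 7 past the test were 53.8% of the list, below the 63.0% of all genes. The catalytic subunits of protein phosphatase 1 did not go together. Ppp1cc fell from 642 ± 38.2 to 178 ± 15.8 normalized reads (SD, n = 3), a log2 difference of -1.02 (limma adjusted p = 1.61e-13) and of -1.85 from the reads, and Ppp1cb fell by 0.51 (limma adjusted p = 1.66e-10). Ppp1ca rose by 0.06 (limma adjusted p = 0.00529). Dnajc3, a chaperone that inhibits PKR and PERK, fell by 0.44 (limma adjusted p = 6.62e-12). Impact, which competes for the activator of GCN2, rose by 0.30 (limma adjusted p = 1.43e-07), with normalized reads at 135% of WT.

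The bZIP factors that can pair with ATF4 or ATF5 were divided, with 7 of 16 lower (43.8%), 6 higher (37.5%) and a median of -0.06, or of -0.17 from the reads. Cebpb fell from 950 ± 10.5 normalized reads (SD, n = 3) in WT to 34.4 ± 1.73 (SD, n = 3) in Piezo1cko LSCs, a log2 difference of -2.37 (limma adjusted p = 8e-20) and of -4.77 from the reads. Cebpg, whose product pairs with ATF4 at the C/EBP-ATF response element, fell by 0.61 (limma adjusted p = 4.47e-10), and by the reads the log2 difference was -1.28, or 41.5% of WT. Nfe2l1 and Nfe2l2, which drive proteasome and antioxidant genes, fell, with log2 differences of -0.77 and -0.56 (limma adjusted p = 2.09e-13 and 2.13e-11). In the other direction, Cebpa, the factor of granulocytic commitment, rose from 122 ± 5.28 to 282 ± 2.07 normalized reads (SD, n = 3; log2 difference 0.53, limma adjusted p = 5.31e-10). Fos rose by 0.25 and Batf by 0.16 (limma adjusted p = 5.75e-06 and 0.00479).

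The list of ATF4 and CHOP targets held 48 genes, of which 46 were tested. Of these 43 fell (93.5%), 2 rose and 1 did not pass, with a median of -0.61, and 11 were lower DEGs. On the recovered reads 27 of 46 were lower and 1 higher DEGs, with a median of -1.13. This list was written with earlier results of these libraries known, so its direction is not independent evidence. Trib3, a pseudokinase that feeds back on ATF4, fell from 1556 ± 46.3 normalized reads (SD, n = 3) to 17.6 ± 7.81 (SD, n = 3), a log2 difference of -3.17 (limma adjusted p = 3.67e-20) and of -6.51 from the reads. Asns, asparagine synthetase, fell from 3430 ± 34.4 to 346 ± 35.6 (SD, n = 3), a log2 difference of -2.24 (limma adjusted p = 3.75e-19) and of -3.32 from the reads. Slc7a11, the cystine transporter subunit, went from 815 ± 25.6 to 33.5 ± 13.0 (SD, n = 3; -2.21, limma adjusted p = 2.67e-17), and Stc2, a secreted glycoprotein, from 477 ± 10.0 to 7.65 ± 5.23 (SD, n = 3; -1.95, limma adjusted p = 8.17e-18). Trib3, Asns and Slc7a11 hold the sites printed above. The 2 genes that rose were Klhl24, by 0.20 (limma adjusted p = 1.37e-05), and Tnfrsf10b, a CHOP target and death receptor, by 0.08 (limma adjusted p = 0.0111). Tnfrsf10b had few reads, 7.89 ± 2.82 normalized reads in WT and 18.6 ± 5.57 in Piezo1cko LSCs (SD, n = 3). Its log2 difference from the reads was 1.21, and it was the higher DEG there.

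Of 22 targets of ATF6 and of IRE1-XBP1, the neighbouring arms of the unfolded protein response, 18 fell (81.8%) and 1 rose, with a median of -0.23 and of -0.37 from the reads. No gene of this list was a DEG on the deposited scale, and on the reads Xbp1 was a lower DEG. Xbp1, whose mRNA is spliced by IRE1, fell by 0.84 on the log2 scale (limma adjusted p = 2.67e-17), and by the reads the log2 difference was -1.14, or 45.4% of WT. Hspa5, the chaperone BiP, fell by 0.59 (limma adjusted p = 9.91e-17), and Edem1 and Creld2 had log2 differences of -0.68 and -0.45 (limma adjusted p = 1.54e-14 and 3.79e-10). Sec61b rose by 0.10 (limma adjusted p = 0.00796). The endoplasmic reticulum stress letters were in 8 of 19 windows of this list, 42.1%, and the C/EBP-ATF letters in 0.

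Of 12 mitochondrial chaperones and proteases, 9 fell (75.0%) and 1 rose, with a median of -0.11 and of -0.16 from the reads. The log2 difference was -0.57 for Dnaja3 (limma adjusted p = 3.75e-11), -0.42 for the mitochondrial Hsp70 gene Hspa9 (limma adjusted p = 4.46e-11) and -0.33 for the chaperonin gene Hspd1 (limma adjusted p = 6.33e-09). Yme1l1, an inner membrane protease, rose by 0.16 (limma adjusted p = 0.000116).

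Interferon-induced genes were set beside Eif2ak2, and 19 of 20 were tested, of which 7 rose and 4 fell. The 11 past the test were 57.9% of the list, against 63.0% of all genes. The median log2 difference was 0.02 on the deposited scale and 0.21 from the reads of all 20, where 2 genes were higher DEGs and 1 was a lower DEG. Irf7 rose from 70.6 ± 3.77 to 185 ± 9.21 normalized reads (SD, n = 3; log2 difference 0.49, limma adjusted p = 2.38e-09). Stat2 rose by 0.24, Irf9 by 0.22 and Dhx58 by 0.20 (limma adjusted p = 2.28e-05, 1.49e-05 and 0.000129). Oas3, Ifit2 and Oas2 fell, with log2 differences of -0.17, -0.16 and -0.14 (limma adjusted p = 0.0015, 0.000929 and 0.000944). The list thus held genes past the test in both directions. The interferon letters were in 9 of 15 of its windows.

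**Figure D4:**
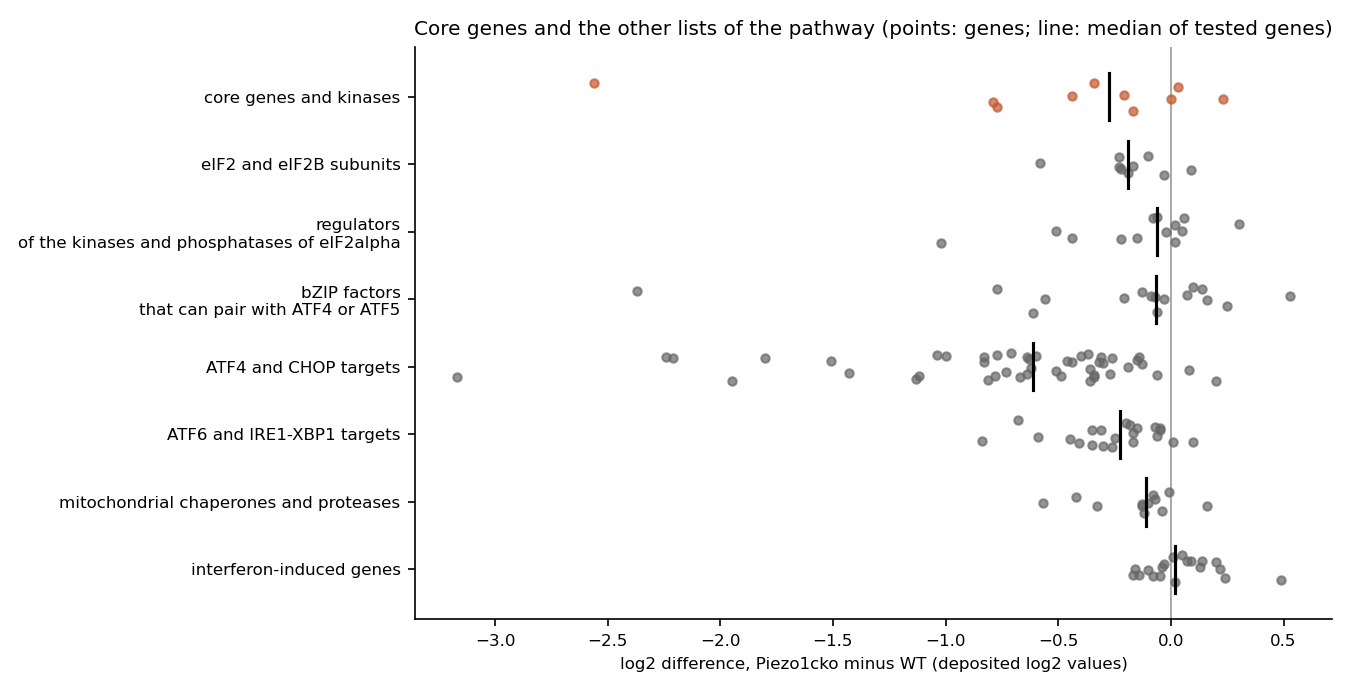
Log2 difference, Piezo1cko minus WT, on the deposited scale for the 10 core genes and kinases and for the tested genes of 7 other lists; points are genes and black lines are medians. The ATF4 and CHOP targets have their median at -0.61 and the interferon-induced genes at 0.02.

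Markers of the sorted cells and of other cells moved between the groups as well. The summed normalized reads of 7 leukemia stem and progenitor markers were 21100 to 21606 in the WT libraries and 24090 to 24672 in the Piezo1cko libraries. Kit and Cd34 were present in all. The markers were divided: 3 were higher (Kit, Cd34 and Ptprc) and 2 were lower (Myb and Meis1). The other 2, Hoxa9 and Fcgr3, did not pass the test, and the median log2 difference was 0.00. The 7 markers of mature neutrophils summed to 2480 to 2506 in WT and 875 to 919 in Piezo1cko LSCs, with 5 of 6 tested lower. The other, Mmp8, rose from 42.5 ± 4.65 to 633 ± 15.1 normalized reads (SD, n = 3; log2 difference 1.82, limma adjusted p = 1.03e-17) and made up most of the Piezo1cko sum. Ly6g averaged 0.323 normalized reads in WT and 0 in Piezo1cko LSCs. Those of mast cells and basophils summed to 2914 to 3040 in WT and 9616 to 9823 in Piezo1cko LSCs, with 4 of 5 higher. The B cell markers summed to 1533 to 1597 in WT and 2404 to 2627 in Piezo1cko LSCs, nearly all from Cd79b. The 5 macrophage markers summed to 911 to 988 in WT and 905 to 1035 in Piezo1cko LSCs, with C1qa at 0. Nearly all of this sum came from Adgre1 and Vcam1, which did not pass the test. The other 2 of 4 tested, C1qb and Mrc1, had few reads and each rose by 0.08 (limma adjusted p = 0.000895 and 0.000526). On the recovered reads both were higher DEGs. The 5 T cell markers summed to 5.77 to 10.7 in WT and 0 to 1.95 in Piezo1cko LSCs, with Cd8a at 0. The sums of the 5 erythroid markers were 13.6 to 28.3 and 9.75 to 11.5. The part of cell makeup in the differences of the members was not tested.

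The genes whose pattern over the 6 libraries was nearest to a member were found by the root mean square distance between deposited values, each centred on its gene's mean. Nearest to Atf4 were Cxcl10 (distance 0.0099), Aoc1 (0.0116), Nolc1 (0.0167), Zfp507 (0.0173) and Prpf31 (0.0195). Their read levels were unlike: Cxcl10 had 59.7 normalized reads in WT and 0 in Piezo1cko LSCs, and Prpf31 had 2966 and 1971, so a like distance on the deposited scale covers unlike ratios of reads. Nearest to Nupr1 were Cd14 (0.0717), Mecom (0.0778), Cebpb (0.0978), Rbm44 (0.14) and Eif3b (0.161). Of these Mecom was close to Nupr1 in its reads as well, with 633 normalized reads in WT and 0.325 in Piezo1cko LSCs, while Cd14 had 6175 and 444.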

How the data were processed

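RNA-seq of LSCs was analysed in 3 WT and 3 Piezo1cko libraries, prepared after Smart-seq2, with oligo-dT priming and Tn5 cutting. By the submitters' processing notes, fastp (version 0.20.1), HISAT2 (version 2.2.1), featureCounts (version 2.0.1) and DESeq2 (version 1.28.1) were used, with GRCm38. The authors deposited log2 values, 1 column per library. They have the form of a regularized log, from -1.97 to 18.06 for 26402 genes, with 28965 genes listed at 0 in all libraries. The transform is not named in the sources used here.

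A linear model was run in limma (lmFit, then eBayes with trend; limma version 3.58.1 in R version 4.3.3) on the 16746 genes whose mean log2 value was at least 1, with Benjamini-Hochberg adjustment. The transform was undone by fitting its size factors and pull so that values became whole reads, and the best fit was reached in 6 of 20 starts. Among 18326 genes averaging 1 read or more, 92.8% of values came within 0.1 of a whole number, against 22.6% with the pull set wrong. The reads were refitted with limma-voom (17352 genes with at least 10 reads in all). Both fits were tested on simulated data, with 200 of 200 changed genes found on the deposited scale and 178 of 200 on the reads. False calls numbered 4 on the deposited scale and 6 on the reads. On the deposited scale the changes were added to the log2 values directly, so the pull of the transform was not part of this test. Exon lengths came from GENCODE M21, sequences from RefSeq (GRCm38.p6), and copies were sought with BLAST (version 2.17.0). Replicates of a group differed beyond counting (chi-square per gene 1.57 to 2.96).

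Intervals cover counting error only. The members and all lists were chosen with earlier results of these data known. Named genes are the members, the 4 genes of each list with the largest differences past the test, up to 3 past it against the list's median, and the 5 genes nearest to Atf4 and to Nupr1. Cell type markers stand beside them (a marker gene is not reported here), and Ppp1r15b was named after its values were seen. Alternatives were other scalings and filters, no trend, a replicate block, other gene lengths and leaving out each library.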

Additional observations from a re-analysis of the deposited data

How the results depend on the processing

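DEGs over all genes numbered 137 on the deposited scale and 4322 on the recovered reads (2110 lower, 2212 higher), or 4333 with library totals as the scale (2078 lower, 2255 higher). The pull of the transform makes the deposited differences smaller. Members past the test numbered 8 of 10 under all 15 alternatives. In the main fits 63.0% of all genes passed on the deposited scale and 62.9% on the recovered reads. The members were chosen on this same difference, so nothing is read from their count. Of 150 values of their differences, 29 moved by more than the spread between replicates and 0 changed sign where called. Of the 120 values on the deposited scale 5 moved, and the other moves were on the recovered reads, where the pull is undone.

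Replicate numbers are shared between the groups, but nothing says that they pair libraries. Deviations of same-numbered libraries correlated at 0.24, 0.20 and 0.09, and each library correlated best with its own number, a hint from the data only. With a replicate block 11055 genes passed the adjusted p against 10556 without it, 137 were DEGs, and 8 members passed. With the block on recovered reads, an alternative added after seeing the data, 11224 genes passed and 4364 were DEGs (2137 lower, 2227 higher).

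The order of the kinases kept its sign under each alternative except that of Eif2ak3 over Eif2ak4, whose log2 ratio per mean transcript length was 0.24. With 1 library left out, the ratios were 1.87 to 1.98 for Eif2ak1 over Eif2ak2, 3.84 to 4.10 over Eif2ak3 and 3.49 to 3.65 over Eif2ak4. They were 1.89 to 2.22 for Eif2ak2 over Eif2ak3, 1.53 to 1.77 over Eif2ak4, and -0.47 to -0.32 for Eif2ak3 over Eif2ak4. An exact sign-flip permutation test of 5 libraries cannot give a p under 0.0625, so these ranges carry no call. Genes with few reads, such as Nupr1 in Piezo1cko LSCs, are limited by counting.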
